A study of Mus musculus with 11 samples.

Results

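The genes described here make retinoic acid, bind it or respond to it: Aldh1a1, Aldh1a2 and Aldh1a3 (synthesis), Crabp1 (binding in the cytoplasm), Rara, Rarb and Rarg (the retinoic acid receptors) and Rxra, Rxrb and Rxrg (the retinoid X receptors). Every deposited peak region overlapping the body of one of these 10 genes or the 20 kb on either side of it was taken, which gave 121 of 131942 regions on the mm9 mouse genome. A region touching the interval from 1 kb upstream to 100 bp downstream of an annotated transcription start site (TSS) of the gene was counted as its promoter (17 regions), and the other 104 regions were counted as distal. Of the distal regions, 74 lay in introns, 2 in exons, 15 upstream and 13 downstream of the gene.

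Open chromatin was mapped by ATAC-seq, in which a transposase cuts accessible DNA, in dopaminergic (DA) and serotonergic (5-HT) neurons at embryonic day 14.5. The 3 DA libraries came from TH-GFP embryos, in which the Th promoter drives GFP, and held GFP+ cells sorted from the ventral mesencephalon. The 2 5-HT libraries came from Mash1-CRE x ROSA YFP embryos and held YFP+ cells sorted from hindbrain rhombomeres. In both groups transgenic males were mated with Swiss wild-type females, and tissue of several embryos was pooled for each sort. Per the study's methods, each 5-HT library was made from fewer sorted cells than any DA library. Transgene, dissected region, cell input and cell type therefore cannot be told apart.

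Aldehyde dehydrogenases of the Aldh1a family oxidize retinaldehyde to retinoic acid, which Crabp proteins carry in the cytoplasm. In the nucleus, retinoic acid binds RAR proteins, which sit with an RXR partner on paired half-sites in DNA and recruit corepressors or coactivators. RXR proteins also partner Nr4a2, a receptor needed for DA neurons, and Aldh1a1 is known as a marker of a subset of midbrain DA neurons.

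Paired half-sites of the kind that RAR and RXR dimers bind were searched in all regions, on both strands, as direct repeats of the half-site AGGTCA or of its variants, which were AGTTCA, likewise GGGTCA, and lastly GGTTCA, with 1, 2 or 5 bases between the copies (DR1, DR2 and DR5). Over their whole length, 3 of the 121 regions held such a repeat, and 0.497% of all regions did. In windows of 300 bases around the centre of each region, the numbers were 2 of 121 and 0.3%. The 3 matches are printed 5′ to 3′ on the strand of the match, with 10 bases on each side and the half-sites in capitals, because 2 of them lie in promoters whose peaks are described below.

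Rarb promoter, DR5, minus strand, chr14:17408017-17408053: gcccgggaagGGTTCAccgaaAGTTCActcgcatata
Rara internal promoter, DR5, plus strand, chr11:98821312-98821348: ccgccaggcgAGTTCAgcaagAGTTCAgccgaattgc
Region between Ring1 and Rxrb, DR1, plus strand, chr17:34164815-34164847: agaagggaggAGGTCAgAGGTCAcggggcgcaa

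The Rarb match lay at chr14:17408027-17408043, 49 bp upstream of the proximal TSS, in a region that was open in all 5 libraries. The Rara match, with identical half-sites, lay 396 bp upstream of an internal TSS in a region open in every DA library, with no peak in either 5-HT library. The DR1 match, also with identical half-sites, lay 3926 bp upstream of the Rxrb TSS, in a region that overlaps the promoter of H2-Ke6. Such matches describe the letters of these windows and do not show binding.

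The promoters differed widely in base composition. This is shown by the 100 bases upstream of the first annotated TSS of Aldh1a1, Rxrg and Rxrb, with each CG dinucleotide in capitals.

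Aldh1a1, plus strand, chr19:20676351-20676450: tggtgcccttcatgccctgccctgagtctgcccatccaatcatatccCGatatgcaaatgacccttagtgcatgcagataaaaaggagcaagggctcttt
Rxrg, plus strand, chr1:169528415-169528514: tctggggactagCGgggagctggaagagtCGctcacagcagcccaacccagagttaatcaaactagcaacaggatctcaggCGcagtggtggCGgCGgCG
Rxrb, plus strand, chr17:34168657-34168756: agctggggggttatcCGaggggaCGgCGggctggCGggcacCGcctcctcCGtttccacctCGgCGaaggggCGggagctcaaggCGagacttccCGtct

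These stretches held 1, 6 and 11 CG dinucleotides. The count depends on the TSS: at later annotated TSSs in the same promoter regions it was 13 and 11 for Rxrg and 13 to 16 for Rxrb. Over the whole promoter region, the ratio of observed to expected CG was 0.193 for Aldh1a1, 0.607 for Rxrg and 0.901 for Rxrb. The median was 0.694 over the 17 promoter regions and 0.183 over the 104 distal regions, and that of all regions was 0.242.

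For each library the deposited data give a score for every region, on a scale that is not named, with 0 where the library has no peak. DA replicates 1, 2 and 3 had a peak in 52861, 93055 and 94351 regions and the 5-HT replicates in 38772 and 22879, with unknown read depth. The regions of the 10 genes made up between 0.0825% and 0.0922% of each library. They numbered 46, 77 and 87 in the DA libraries and 32 and 20 in the 5-HT libraries. Because the 5-HT libraries hold fewer peaks, an absent peak there may lie under the detection limit. Regions of the 10 genes and all regions were therefore also classed on the 22879 highest-scoring regions of every library (the matched number). Promoter counts by gene or marker used all peaks. In these sorted pools, fewer cells with an open region and a weaker opening per cell cannot be told apart. Of the DA markers, all 9 had a promoter peak in the 3 DA libraries, but only Th and Lmx1a lacked one in both 5-HT libraries. Ddc, En1, Foxa2, Nr4a2 and Pitx3 had one in all 5 libraries, and Slc6a3 and Slc18a2 in the DA libraries and 1 5-HT library. The 5-HT markers did not separate the groups clearly either. Tph2 and Gata3 had a promoter peak in all 5 libraries, Slc6a4 in the DA libraries alone and Fev in 5-HT replicate 1 alone. Gata2 had one in DA replicate 2 and 5-HT replicate 1, and Lmx1b in the DA libraries and 5-HT replicate 1. Markers of other cells were open in part as well. Gad1 and Gad2 (2 of 3 GABA markers), Fabp7 (1 of 4 of radial glia and astrocytes) and Foxc1 (1 of 4 of pericytes and meninges) had a promoter peak in all 5 libraries. The glutamate marker Slc17a6 scored 9.97, 12.9 and 12.8 in the DA libraries and 3.65 and 0 in the 5-HT libraries. The glial markers Gfap and Slc1a3, the endothelial Cldn5 and the GABA marker Slc32a1 were also open in the DA libraries and 5-HT replicate 1. Col1a1, of pericytes and meninges, had the DA-only pattern of the Aldh1a1 and Rarg promoters (4.67, 6.84 and 4.52, and 0 in both 5-HT libraries). Rgs5, Pdgfrb and Aldh1l1 were open in 1 or 2 libraries, and Slc17a7, Pecam1, Aif1 and Csf1r in none. The part of other cell types in the results was not tested.

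All 10 genes had a promoter peak in at least 1 library, as did 65.1% of protein-coding genes. The receptor genes Rara, Rarb, Rxrb and Rxrg, had one in all 5 libraries (4 of 10 genes, against 48.5% of protein-coding genes). Aldh1a1 and Rarg had one in every DA library but not in the 5-HT libraries (2 of 10, against 1.99%). Aldh1a3 was open in the DA libraries and 5-HT replicate 1, and Crabp1 in DA replicates 2 and 3. Aldh1a2 and Rxra were both open in DA replicates 1 and 2, with 5-HT replicate 1 for Aldh1a2 and 5-HT replicate 2 for Rxra. Counted as regions, 4 of the 17 promoter regions were common to the 5 libraries, where 62.7% of regions at protein-coding promoters were. DA-only promoter regions, meaning those with a peak in the 3 DA libraries and none in the 5-HT libraries, numbered 3 of 17 (Aldh1a1, Rara and Rarg), against 4.91%. With numbers this small these are descriptions, and none of the 3 was among the matched number of peaks in any library.

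**Figure D1:**
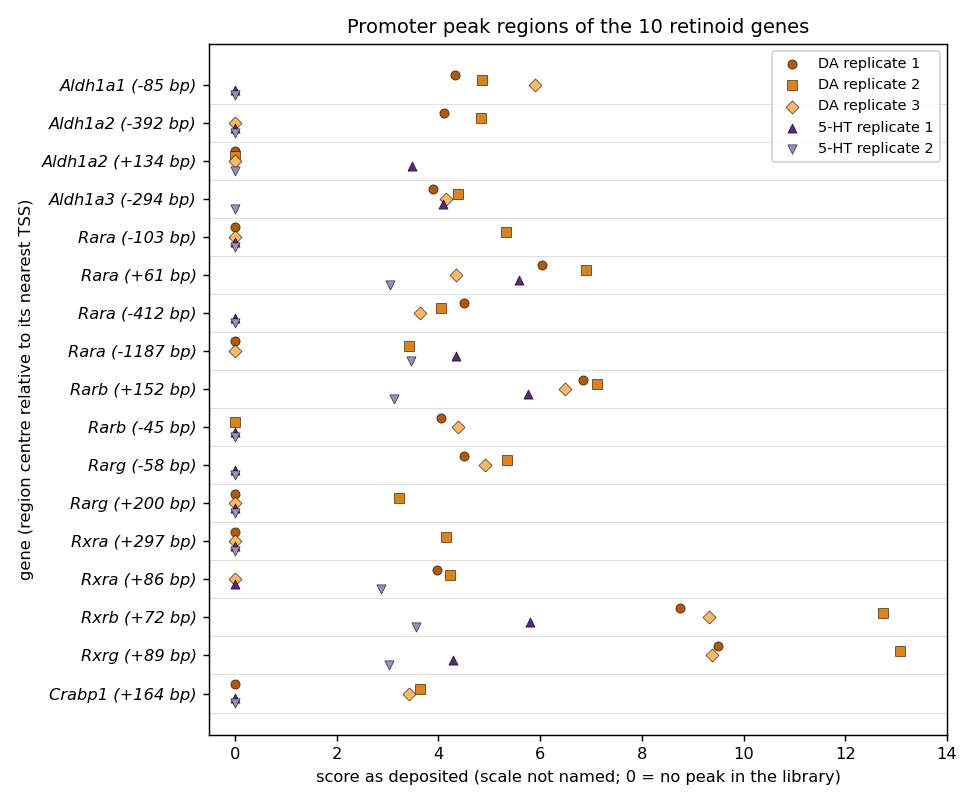
Score of the 17 promoter regions in each library (x axis, score as deposited, 0 where there is no peak), with 1 line for each region, named by its gene and the distance of its centre from the nearest TSS, and 1 marker for each library. The Rxrb and Rxrg regions stand highest in the DA libraries (8.76 to 13.1), and the Aldh1a1, Rarg and internal Rara (-412 bp) regions have all 3 DA markers above 0 and both 5-HT markers at 0.

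Among the synthesis enzymes, only Aldh1a1 had a DA-only promoter region. Its region at chr19:20675926-20676806, centred 85 bp upstream of the TSS, scored 4.32, 4.86 and 5.90 in DA replicates 1, 2 and 3 and 0 in both 5-HT libraries. That the groups do not overlap follows from the DA-only class. Within the DA libraries the peak lay at percentiles 32.9, 57.1 and 75.1 of the peaks of replicates 1, 2 and 3. It was not among the matched number of peaks in any library. The locus held 13.5 regions per 100 kb, a density above that of 90.8% of protein-coding genes, but 8 of its 11 regions had a peak in 1 or 2 DA libraries alone.

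The Aldh1a1 gene also held the only 5-HT-only region of the 10 genes. It overlapped an exon at chr19:20708747-20709045, 32.4 kb downstream of the TSS, and scored 5.32 and 3.17 in 5-HT replicates 1 and 2 and 0 in the 3 DA libraries. It was also 5-HT-only at the matched number of peaks. Among all regions, 0.389% were 5-HT-only. The promoter and this exonic region of the same gene were thus open in opposite groups of libraries.

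Aldh1a3, another enzyme of retinoic acid synthesis, had a promoter region at chr7:73572089-73573306 that was open in 4 libraries. Its scores were 3.89, 4.38 and 4.15 in the DA libraries, 4.09 in 5-HT replicate 1 and 0 in 5-HT replicate 2, so the groups overlapped. A region 7.26 kb upstream, at chr7:73579518-73579809, scored higher, at 6.41, 8.94 and 6.91 in the DA libraries and 0 in both 5-HT libraries. That upstream region was DA-only at the matched number of peaks as well.

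Aldh1a2, the main enzyme of retinoic acid synthesis in the early embryo, had few peaks. Its window held 2 regions, both at the promoter, which is 1.66 regions per 100 kb against a median of 5.92 (quartiles 3.05 and 9.31) over 22367 protein-coding genes. The region at chr9:71063035-71063373 scored 4.11 and 4.83 in DA replicates 1 and 2 and 0 elsewhere. The region at chr9:71063625-71063835, downstream of the TSS, scored 3.47 in 5-HT replicate 1 and 0 elsewhere. Neither was found in every library of a group.

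Crabp1, the cytoplasmic binding protein, had a weak promoter region at chr9:54612590-54612849, which scored 3.64 and 3.42 in DA replicates 2 and 3 and 0 in the other 3 libraries. A region 23.3 kb downstream of its TSS, at chr9:54635492-54636161, was open in all 5 libraries. Its scores were 5.57, 7.54 and 7.38 in the DA libraries and 3.37 and 2.84 in the 5-HT libraries. The DA scores lay above the 5-HT scores without overlap, as in 81.1% of all regions open in the 5 libraries. The height of this region is compared below.

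Rara encodes the most broadly expressed RAR and had the most regions per length of the 10 genes, 16.1 per 100 kb, more than 95.3% of protein-coding genes. Of its 14 regions, 4 were open in all 5 libraries, as were 12.8% of all regions and 62.7% of those at protein-coding promoters. Among the 4 were regions that overlap the promoters of the other genes Cdc6 and Gjd3. A promoter of Rara itself among the 4, at chr11:98798741-98799446, scored 6.04, 6.90 and 4.34 in the DA libraries and 5.58 and 3.05 in the 5-HT libraries. There the groups overlapped. The promoter at the annotated start of the gene, chr11:98788906-98789153, scored 5.32 in DA replicate 2 and 0 in the other libraries.

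The other 2 promoter regions of Rara went in opposite directions. The region at chr11:98820800-98821829, which holds the DR5 match, scored 4.50, 4.05 and 3.64 in the DA libraries and 0 in both 5-HT libraries. The region at chr11:98824630-98825368 scored 4.35 and 3.47 in the 5-HT libraries, 3.42 in DA replicate 2 and 0 in DA replicates 1 and 3, and at the matched number of peaks it was 5-HT-only. The distal common region with the highest rank lies at chr11:98768869-98769305, at the promoter of Cdc6, a replication gene, and scored 9.87, 13.9 and 10.5 in the DA libraries and 6.50 and 7.10 in the 5-HT libraries.

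Rarb, whose gene spans 388.0 kb and whose proximal promoter is a known retinoic acid target, held 55 of the 121 regions. Per 100 kb this is 12.8, more than 89.4% of protein-coding genes. DA replicates 1, 2 and 3 had a peak in 14, 25 and 45 of these regions, and 5-HT replicates 1 and 2 in 7 and 3 of them. Of the 55, 34 had a peak in 1 library alone, 24 of them in DA replicate 3, and without this library 31 regions had a peak. Single-library regions made up 48.8% of the regions of the 10 genes and 44.5% of all regions.

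**Figure D2:**
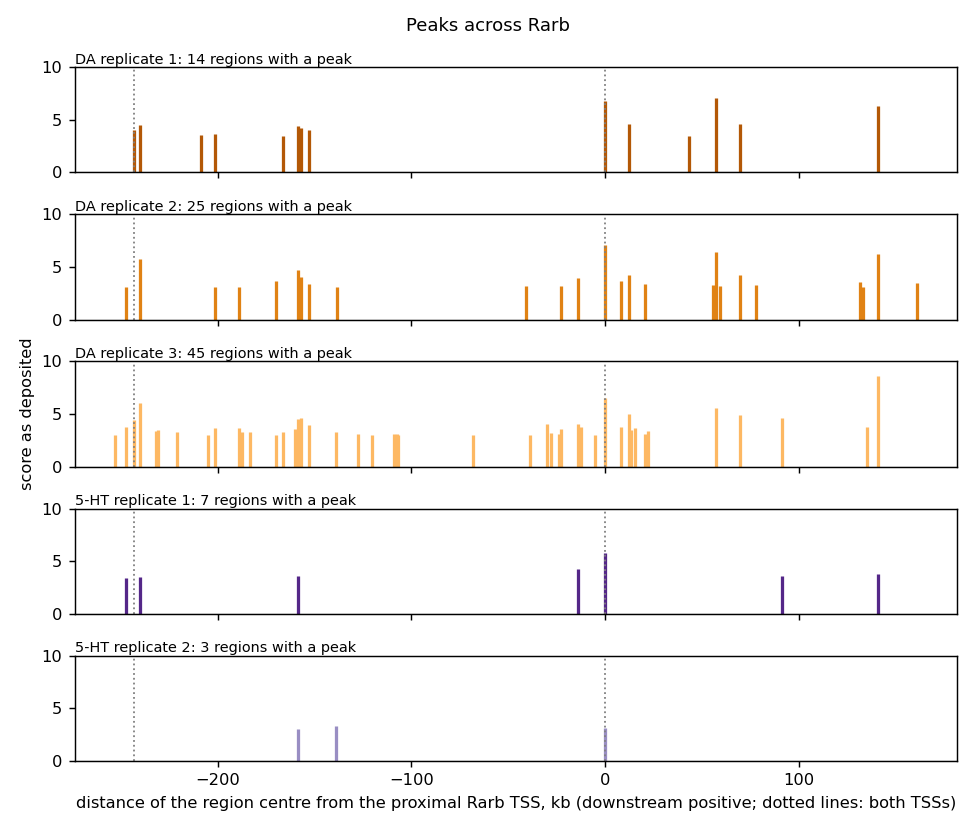
Score (y axis, as deposited) of each region with a peak across the Rarb window, by distance of its centre from the proximal TSS in kb (x axis, downstream positive), with 1 panel for each library and both TSSs as dotted lines. The promoter at 0 has a peak in every panel, and the number of peaks, promoters included, runs from 45 for DA replicate 3 to 3 for 5-HT replicate 2.

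The proximal Rarb promoter, at chr14:17407212-17408456 and holding the DR5 match, scored 6.84, 7.12 and 6.49 in the DA libraries and 5.76 and 3.13 in the 5-HT libraries. It was 1 of 2 Rarb regions found in all 5 libraries and remained common at the matched number of peaks. The distal promoter, at chr14:17651251-17651601, scored 4.06 and 4.39 in DA replicates 1 and 3 and 0 in the others, and its ratio of observed to expected CG was 0.115.

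Of the 55 Rarb regions, 6 were DA-only, against 13.4% of all regions, and all of them lay in introns. The highest-ranking, at chr14:17350232-17351360, 57.2 kb downstream of the proximal TSS, scored 7.05, 6.39 and 5.61 in the DA libraries. The regions at chr14:17338188-17338416 and chr14:17395196-17396492 scored 4.65, 4.25 and 4.86, and 4.60, 4.23 and 5.04. The other 3 had scores between 3.06 and 4.62, and none of the 6 was DA-only at the matched number of peaks. The other common region, at chr14:17565651-17567234 in an intron, scored 4.43, 4.74 and 4.52 in the DA libraries and 3.56 and 3.01 in the 5-HT libraries.

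Rarg, the receptor best known from skin and cartilage, had 4 regions. Its promoter region at chr15:102076325-102077653 was DA-only and scored 4.50, 5.35 and 4.92 in the DA libraries and 0 in both 5-HT libraries. A second promoter region, at chr15:102087439-102087721, scored 3.23 in DA replicate 2 alone. Its common distal region, at chr15:102054720-102055359 in the body of Itgb7, scored 5.67, 6.76 and 5.21 in the DA libraries and 5.83 and 3.64 in the 5-HT libraries.

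Rxra, the broadly expressed RXR, had no region open in all 5 libraries, as 12.8% of all regions were. Of its 12 regions, 4 were DA-only, all of them distal, against 13.4% of all regions. The region 24.5 kb downstream of the nearest annotated TSS, at chr2:27619657-27620720, scored 5.62, 6.99 and 6.97 in the DA libraries and was DA-only at the matched number of peaks too. An intronic region at chr2:27601406-27602200 scored 5.14, 6.61 and 5.32, and a region 4.54 kb upstream of the gene, at chr2:27527195-27527636, scored 3.95, 4.39 and 3.68. The promoter regions were weak: chr2:27531738-27532777 scored 4.15 in DA replicate 2 alone, and chr2:27595387-27596227 scored 3.97 and 4.24 in DA replicates 1 and 2 and 2.86 in 5-HT replicate 2.

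Rxrb lies in a dense gene neighbourhood on chromosome 17. Of its 6 regions, 3 were open in all 5 libraries, against 12.8% of all regions and 62.7% of those at protein-coding promoters. Each of the 3 overlaps a promoter. They stayed common at the matched number of peaks, where 27.0% of all regions were common. The promoter region, at chr17:34168174-34169484, scored 8.76, 12.7 and 9.32 in the DA libraries and 5.81 and 3.55 in the 5-HT libraries. It overlaps the promoters of Slc39a7 and Gm20427 as well, so its opening cannot be given to Rxrb alone. The other common regions lie at the promoters of Ring1 and Mir219-1 (6.71, 10.4 and 7.20 against 4.42 and 3.57) and of H2-Ke6 (7.22, 8.30 and 6.56 against 4.60 and 3.65), the second with the DR1 match.

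Rxrg, the RXR with the most restricted expression, had 6.15 regions per 100 kb, against a median of 5.92 over protein-coding genes. Every DA library had a peak in each of its 5 regions, and 4 and 2 of them had one in 5-HT replicates 1 and 2. Over all 131942 regions, 45672 had a peak in every DA library. For 5-HT replicates 1 and 2 the numbers were 38772 and 22879. The promoter region, at chr1:169528338-169529062, scored 9.51, 13.1 and 9.38 in the DA libraries and 4.29 and 3.03 in the 5-HT libraries. An intronic region at chr1:169567115-169567438 scored 7.78, 9.01 and 6.81 in the DA libraries and 0 in both 5-HT libraries, and it was DA-only at the matched number of peaks. The common intronic region at chr1:169538202-169539007 scored 7.33, 9.08 and 7.83 against 4.20 and 3.87.

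Over the 121 regions, 15 were DA-only (12.4%), against 13.4% of all regions, and 13 were common (10.7%), against 12.8%. Away from every annotated promoter, 12 of 97 regions were DA-only, against 14.6%, and 5 of 97 were common, against 5.55%. These shares lie close to those of the whole map. The number of DA-only regions rose to 25 when DA replicate 1 was left out and to 23 without 5-HT replicate 1, and the number of common regions to 21 without 5-HT replicate 2. The largest class was that of regions with a peak in 1 or 2 DA libraries alone, with 70 of 121 (57.9%, against 54.2% of all regions).

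**Figure D3:**
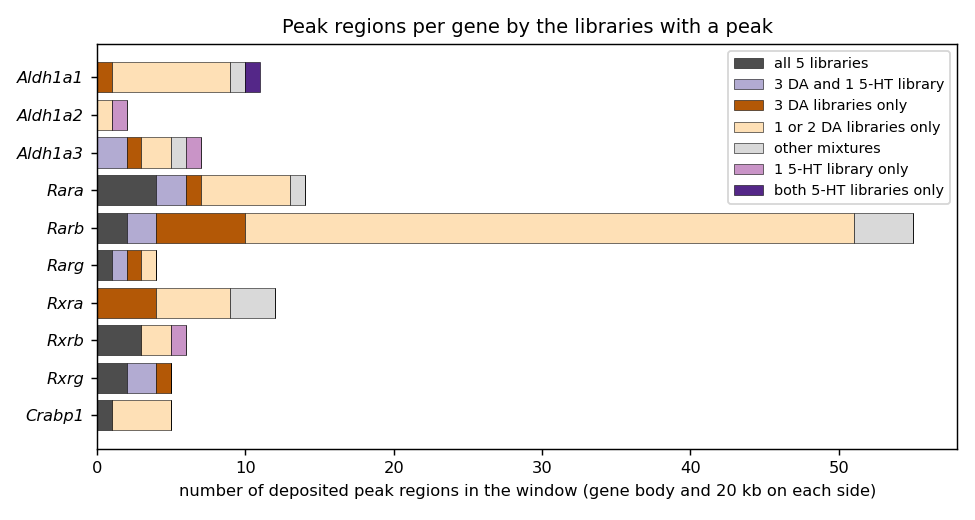
Number of peak regions (x axis) in the window of each gene, divided by the set of libraries with a peak. Rarb holds 55 regions, 41 of them in 1 or 2 DA libraries only, Rxra has 4 of the 15 DA-only regions, and the only region of both 5-HT libraries alone is at Aldh1a1.

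At the matched number of peaks, 33 regions of the retinoid genes remained. DA-only regions were then 3 of 33, at Aldh1a3, Rxra and Rxrg, against 6.94% of all regions at this number. The 5-HT-only regions were 2 of 33, at Aldh1a1 and Rara, against 5.79%, and 7 of 33 were common, against 27.0%. So the excess of DA-only over 5-HT-only regions, 15 against 1 with all peaks, was 3 against 2 when every library contributed the same number of peaks.

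The height of peaks was compared between the cell types where every library had one. In 10 of the 13 common regions the lowest DA score lay above the highest 5-HT score, and the opposite was found in 0. Among all 16856 common regions the share was 81.1%, so the unscaled scores differ between the libraries as a whole. After quantile normalization of log2 scores across the 5 libraries, the difference between DA and 5-HT was tested with limma over all 16856 regions with Benjamini-Hochberg adjustment.

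The Rxrg promoter was the only region of the retinoid genes to pass. On the normalized log2 scale it reached 3.04, 3.17 and 2.92 in the DA libraries and 2.21 and 2.04 in the 5-HT libraries. The difference of 0.92 ± 0.16 (SE, 95% interval 0.57 to 1.27) had an adjusted p of 0.0320 in limma, with no overlap between the groups. Of all common regions, 0.368% were higher in DA and 0.682% higher in 5-HT by this test (62 and 115 regions), a split that became 416 and 1298 when the libraries were scaled by their medians instead. The Rxrg call was lost when any of the DA libraries was left out (limma adjusted p of 0.189, 0.217 and 0.198 without replicates 1, 2 and 3), while the difference stayed between 0.80 and 0.94. It was also lost when regions without a peak entered the fit, where the difference was 0.58 to 0.68 and the limma adjusted p 0.0721 to 0.449. Over libraries alone, an exact permutation test of 3 against 2 libraries cannot go below a two-sided p of 0.1.

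The downstream Crabp1 region came next, with normalized log2 scores of 2.34, 2.48 and 2.61 in the DA libraries and 1.71 and 1.71 in the 5-HT libraries. Its difference of 0.77 ± 0.16 (SE) did not pass after adjustment (limma, adjusted p of 0.0515). It passed with an intensity trend (limma, adjusted p of 0.0359), and with median centring the difference fell to 0.33 (0.240). Without DA replicates 1, 2 and 3 the difference was 0.86, 0.67 and 0.65 (limma adjusted p of 0.191, 0.248 and 0.282). Without 5-HT replicate 1 or 2, which leaves 1 library in that group, the difference was 0.83 and 0.84. The Rarb proximal promoter differed by 0.03, with a 95% interval of -0.40 to 0.46 that leaves room for a difference in either direction. The Rara promoter differed by -0.11 (-0.59 to 0.37) and the Rxrb promoter by 0.36 (-0.01 to 0.72). The second common region of Rxrg, in an intron, differed by 0.27 (-0.12 to 0.67), and the Rarg distal region had the same scale of difference in the other direction, -0.36 (-0.71 to -0.01, limma adjusted p of 0.277). The median over the 13 regions was 0.13, and over all regions 0.01.

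**Figure D4:**
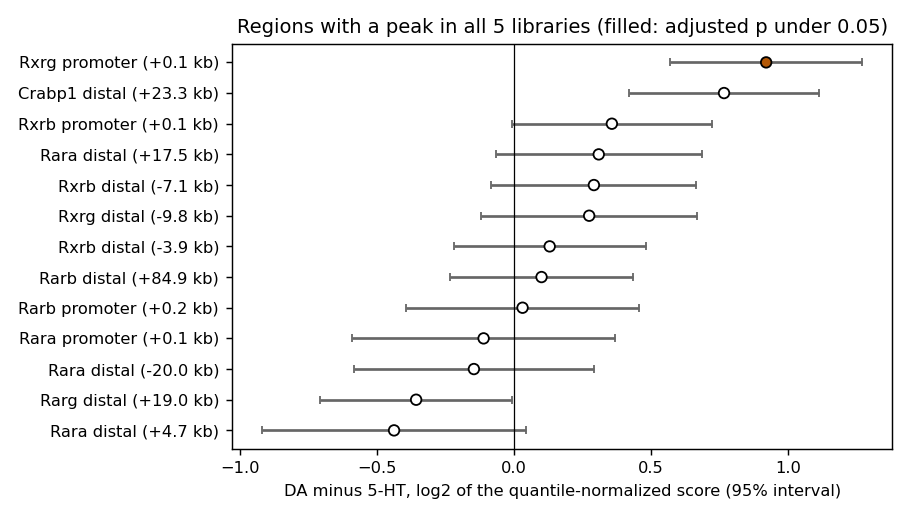
Difference between DA and 5-HT libraries in the log2 of the quantile-normalized score (x axis, points with 95% intervals) for the 13 regions with a peak in all 5 libraries, named by gene and distance from the nearest TSS. The Rxrg promoter, at 0.92, is the filled point (limma adjusted p under 0.05), and the Crabp1 region at 0.77 follows, while 10 of the 13 intervals include 0.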

How the data were processed

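ATAC-seq peak maps of 3 DA and 2 5-HT libraries were analysed. The RNA-seq samples of the series (6) were not used here. Per the study's methods, the authors used Trimmomatic for trimming, Bowtie2 for alignment (mm9), Picard against duplicates and MACS2 for peaks. BEDOPS then joined peaks under 100 bp apart. Tool versions and the threshold for peaks are not given in the sources used here. For each library the authors deposited 1 score per region, whose scale is not named, and 3 further columns hold -1 throughout. One line with a misspelled chromosome was read as the Y chromosome. The libraries come from separate sorts, and the read depth behind a score is unknown.

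Regions were matched to GENCODE gene models of the same build. A peak was present where its score was above 0. The DA-only, 5-HT-only and common classes follow the definitions of the study. Heights were compared with limma 3.58.1 (R 4.3.3) on quantile-normalized log2 scores of regions with a peak in all 5 libraries, with Benjamini-Hochberg adjustment over all regions tested and a threshold of 0.05. Counting, sequence searches and figures used Python 3.11.15, pandas 2.3.3 and NumPy 2.4.6. Sequences were read from the NCBIM37 genome, which is mm9. The scripts were tested on simulated data.

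The genes, lists and tests were chosen with earlier results of these data known. Scores are given for every promoter region, for each gene the up to 3 DA-only distal regions and the common distal region with the highest rank in their lowest library, 5-HT-only distal regions, regions called by limma and regions with a direct repeat. Some genes of the pathway lists are not reported here. The common region at Ring1 was named after its values were seen. Alternatives were the number of peaks, the window, the overlap, the promoter definition, normalization, inclusion of regions without a peak, the replicate block and leaving out each library.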

Additional observations from a re-analysis of the deposited data

How the results depend on the processing

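The counts in the 10 windows followed the number of peaks and libraries. The 15 DA-only, 1 5-HT-only and 13 common regions became 3, 2 and 7 at the matched number of peaks and 2, 0 and 1 with the 10000 highest-scoring regions of each library. With windows of 50 kb, DA-only regions were 23, and with gene bodies alone (0 kb) common regions were 7. Leaving out each library gave 16 to 25 DA-only, 1 to 3 5-HT-only and 13 to 21 common regions, with 3 5-HT-only regions without 5-HT replicate 2 and 2 without DA replicate 2 or 5-HT replicate 1. Merging of regions, an overlap of 50%, a wider promoter and other search windows for direct repeats kept every count within 1.5 times.

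The limma calls were unstable. Over all regions they numbered 177 of 16856, and 1714 of 16856 with median centring. When regions with a peak in at least 1 library entered as log2(score + 1) or log2(score + 0.1), they numbered 5084 and 3875 of 131942. With a peak in at least 3 libraries, as log2(score + 1), they numbered 3528 of 50841. In the 10 windows they numbered 1 of 13, and in the same order 2 of 13, 7 and 5 of 121, and 4 of 43. With an intensity trend of the prior variance they numbered 2 of 13 (the Rxrg promoter and the Crabp1 region). All of the 7 and the 5 lacked a peak in at least 1 library. The 2 with median centring were the Rxrg promoter and an intronic Rara region (chr11:98830062-98831715), higher in 5-HT at -0.724. The 7, 5 and 4 did not include the Rxrg promoter, whose difference was 0.595, 0.679 and 0.581 (limma adjusted p of 0.215, 0.449 and 0.0721). Leaving out each library gave 0 to 2771 calls in all and 0 to 3 in the windows, with 0 in the windows without any of the DA libraries. With the replicate block, 2 regions passed in all and 0 in the windows. Deviations of same-numbered libraries from their group means correlated at -0.0086 and 0.0261. As the deviations of the 2 5-HT libraries mirror each other, this cannot show whether same-numbered libraries shared a batch.

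Some differences of regions that did not pass changed sign. For the Rara region at Cdc6 the value ran from -0.48 to 0.187 when each library was left out, the highest without 5-HT replicate 2. For the Rara promoter it was 0.027 with the replicate block and -0.481 to 0.23 when each library was left out, with 0.0259 without DA replicate 3 and 0.23 without 5-HT replicate 1. For the Rarb promoter it was -0.122 with median centring, -0.145, -0.166 and -0.159 in the fits including regions without a peak, and -0.292 to 0.355 when each library was left out, the lowest without 5-HT replicate 2. For the common intronic Rarb region it was -0.324 with median centring and -0.536, -1.07 and -0.849 in those fits, and for the H2-Ke6 region -0.0188, -0.0214 and -0.0254. The cause of these changes was not tested.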

Other observations

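Other genes of the retinoid pathway, from lists of metabolism and transport genes and of receptor cofactors, were described by the peaks at their promoters. Of the first list, Rdh10 and Dhrs3, which interconvert retinol and retinaldehyde, and Fabp5, which carries retinoic acid, had a promoter peak in all 5 libraries (as did 48.5% of protein-coding genes). The Rdh10 promoter scored 10.1, 13.0 and 11.8 in the DA libraries and 7.33 and 5.39 in the 5-HT libraries, and that of Fabp5 8.77, 11.2 and 11.1 against 7.45 and 5.18. Cyp26a1, an enzyme that degrades retinoic acid, Lrat, which esterifies retinol, Rbp4, the carrier of retinol in blood, and Rdh11 had one in the 3 DA libraries and in 1 5-HT library. Crabp2, Cyp26b1, Dhrs9 and Stra6 had one in 1 or 2 DA libraries alone, and Bcmo1 and Cyp26c1 had none in any library. None of the genes named here was DA-only or 5-HT-only.

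The promoters of the corepressor gene Ncor1, of Ncoa1, Ncoa2 and Nrip1, and of the acetyltransferase genes Ep300 and Crebbp had a peak in all 5 libraries, and that of Ncoa3 in the 3 DA libraries and 5-HT replicate 1. The highest of these was Ncoa2, scoring 12.5, 15.8 and 15.2 in the DA libraries and 8.04 and 6.93 in the 5-HT libraries.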
